A study of Tachysurus fulvidraco x Tachysurus vachelli with 9 samples.

Results

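Prdm1 (LOC113649194, PR domain zinc finger protein 1-like) and Irf4 (LOC113662310, interferon regulatory factor 4-like) are 2 of the 26163 genes in the table of intestinal RNA-seq values, and they were taken by their locus names. Both passed the filter of at least 1 FPKM (fragments per kilobase of transcript, scaled to the mapped fragments of the library) in at least 3 libraries, which 17244 genes passed. They had been chosen by their levels in these same libraries, above all those at the end of transport, so their own values are given as a description, with no test. In the Str group Prdm1 stood far above Ctrl and Irf4 far below it, and in the Rec group both had moved back.

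The fish were hybrid yellow catfish (Tachysurus fulvidraco female × Pseudobagrus vachellii male), a farmed freshwater fish, and RNA came from the posterior intestine. Ctrl fish were not transported, Str fish spent 16 h in oxygen-filled bags of water on a shaker, and Rec fish had 96 h of recovery after the same 16 h, with 3 fish per group and 1 library per fish. The labels give no age or sex for any group and do not say from which bag a fish came, so p-values measure the spread between these fish. The paper describes the sequenced Ctrl fish as those taken at the start of transport, so the groups also differ in sampling time. Food was withheld before the experiment, and feeding during recovery is not described. Transport, fasting and sampling time thus cannot be told apart in these groups.

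Prdm1 encodes Blimp-1, a zinc finger repressor that in mammals drives activated B cells to become antibody-secreting plasma cells, limits effector T cells and, in the mouse, also acts in the intestinal epithelium. Irf4 is a lymphocyte and dendritic cell transcription factor that is switched on by antigen receptor signalling and binds DNA with partners such as PU.1, Ikaros and Batf. In mouse B cells Irf4 acts upstream of Prdm1, and both are needed for plasma cells, which are abundant in the gut lining of mammals.

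Prdm1 was covered by 648 to 14721 deposited counts per library and Irf4 by 193 to 3178, where 1 read pair usually gave 4 counts. Total counts ran from 48605412 to 73110636 per library. The Prdm1 gene spans 15202 to 50615 on the minus strand of scaffold NW_020847860.1, with 4 transcripts in the table, and Irf4 spans 941255 to 958298 on the plus strand of scaffold NW_020848087.1, with 1 transcript. No build is named for these coordinates. The 3453 bases at the high-coordinate end of the Prdm1 span overlap the prolyl endopeptidase-like gene LOC113649193 on the other strand. Since Prdm1 is on the minus strand, this is its 5' end. The pathway label in the Prdm1 row (renin-angiotensin system) is that of an endopeptidase. No source states strand-specific counting, so reads in the shared stretch cannot be told apart. LOC113649193 itself ran at 23.7, 28.3 and 31.2 FPKM in Ctrl, 14.7, 25.0 and 25.0 in Str, and 23.1, 23.1 and 38.0 in Rec. Its log2 fold change in Str vs. Ctrl was -0.30 (edgeR adjusted p = 0.576), so this neighbour did not pass the test. Of the genes within 60000 bases of Irf4 none was called, the closest to it in shape being an Rnf138-like ubiquitin ligase gene (LOC113662239, log2 fold change -1.46 in Str vs. Ctrl, adjusted p = 0.102).

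Prdm1 stood at 2.89, 5.68 and 2.95 FPKM in Ctrl-1, Ctrl-2 and Ctrl-3. It stood at 11.4, 45.5 and 16.4 FPKM in Str-1, Str-2 and Str-3. It stood at 2.12, 2.26 and 2.39 FPKM in Rec-1, Rec-2 and Rec-3. Every Str library was above every other library, Str-2 most of all, and the lowest Str level was 2.01 times the highest Ctrl level. The group means were 3.84 ± 1.6 FPKM in Ctrl, 24.4 ± 18.4 in Str and 2.26 ± 0.134 in Rec (SD, n = 3 each), so the Str libraries were spread 3.99-fold among themselves and the Rec libraries 1.13-fold. The log2 fold change was 2.75 (SE 0.53) in Str vs. Ctrl, a 6.73-fold difference, and -3.33 (SE 0.54) in Rec vs. Str, a 10.1-fold difference. Without Str-2 these values were 1.89 and -2.47, both in the same direction. Of all genes tested, 256 had a higher log2 fold change in Str vs. Ctrl.

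Irf4 stood at 4.08, 17.6 and 17.1 FPKM in Ctrl-1, Ctrl-2 and Ctrl-3. It stood at 2.03, 1.31 and 1.29 FPKM in Str-1, Str-2 and Str-3. It stood at 4.25, 3.88 and 12.9 FPKM in Rec-1, Rec-2 and Rec-3. Every Str library was below every other library, while Ctrl-1, Rec-1 and Rec-2 formed a middle level and Ctrl-2, Ctrl-3 and Rec-3 a high level. The TMM library scaling factors, which FPKM does not use, split these libraries in the same way (0.885, 0.963 and 0.826 against 1.12, 1.15 and 1.05). On TMM-scaled CPM Irf4 kept the split, at 13.8, 13.2 and 14.1 against 46.7, 44.3 and 37.0. The means were 12.9 ± 7.65 FPKM in Ctrl, 1.55 ± 0.420 in Str and 7.01 ± 5.11 in Rec (SD, n = 3 each). The log2 fold change was -2.94 (SE 0.58) in Str vs. Ctrl, a 7.65-fold difference, and 2.23 (SE 0.56) in Rec vs. Str, a 4.70-fold difference. Without Rec-3 the value for Rec vs. Str was 1.58. Of all genes tested, 319 had a lower log2 fold change in Str vs. Ctrl. In a bulk tissue, fewer cells of a type and less RNA per cell cannot be told apart.

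**Figure D1:**
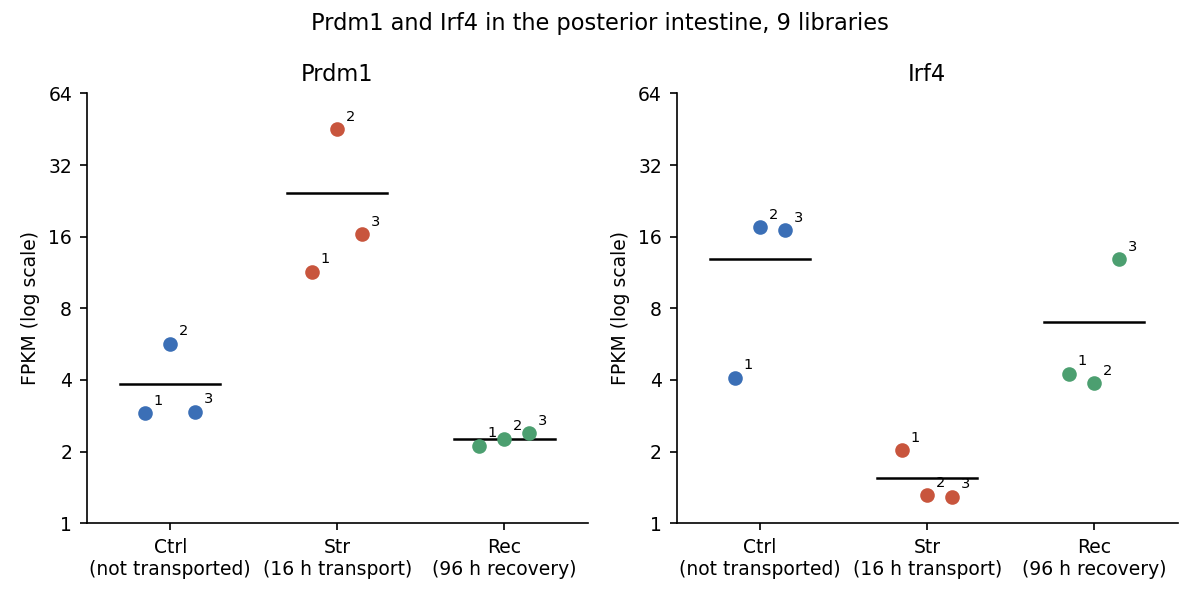
FPKM of Prdm1 (left) and Irf4 (right) on a log scale, with 1 point per library, the replicate number beside it and a line at the group mean (n = 3). The Str libraries lie between 11.4 and 45.5 FPKM for Prdm1, above all others, and between 1.29 and 2.03 FPKM for Irf4, below all others.

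Libraries of the Str and Ctrl groups did not overlap for either gene, which held for 14.4% of all genes tested in the higher direction and 16.1% in the lower. In Rec vs. Str those shares were 11.8% and 17.2%. The order of the means was Str, Ctrl, Rec for Prdm1 and Ctrl, Rec, Str for Irf4. Rec and Ctrl were neighbours in both orders: for Prdm1 the 3 Rec libraries lay just below the 3 Ctrl libraries (log2 fold change -0.58, SE 0.50; 7.42% of all genes tested had such a gap), though on TMM-scaled CPM Rec-2 (15.3) was above Ctrl-3 (14.2), and for Irf4 they overlapped (log2 fold change -0.70, SE 0.54, and -1.35 without Rec-3).

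Since both levels are per length, they can be set against each other within a library. Prdm1 was 0.708, 0.323 and 0.173 times Irf4 in the Ctrl libraries and 0.499, 0.584 and 0.185 times in the Rec libraries. In the Str libraries it was 5.62, 34.7 and 12.6 times Irf4. Irf4 was thus the higher of the pair in all 6 libraries of fish that had not just been transported, and Prdm1 in all 3 that had. The pair was chosen by its levels in the Str libraries, so this turn is largely a result of that choice. On log2(FPKM + 1), Pearson's r between the pair was -0.63 over the 9 libraries and 0.61 over the 6 Ctrl and Rec libraries. Over those 6 libraries the median r of all genes tested was also above 0, at 0.40 with Irf4 and 0.23 with Prdm1. Over the 9 libraries r was -0.77 on log CPM, and Spearman's rank correlation was -0.48. The negative sign over the 9 libraries follows the Str group, and these points share their libraries, so no correlation of the pair is given a p.

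For the genes around the pair, edgeR's quasi-likelihood test was fitted across all 17244 genes, and a gene was called where its adjusted p was under 0.05. Between Str and Ctrl 2.78% of all genes tested rose and 3.1% fell. Between Rec and Str 5.03% rose and 4.11% fell. An unadjusted p below 0.05 was found for 23.1% of all genes tested in Str vs. Ctrl and 26.3% in Rec vs. Str. DESeq2 called 2540 and 3193 of the 17244 genes. Genes known from mammals to act with Prdm1 and Irf4 were collected in 7 lists, of which 128 loci other than the pair passed the filter. In Str vs. Ctrl 1 of them rose and 9 fell, which is 7.81% called beside 5.88% of all genes, with a median log2 fold change of -0.45 beside 0.00 for all genes. From Str to Rec 6 rose and 6 fell, 9.38% beside 9.15%, with a median of 0.14 beside 0.03. These counts rest on few fish: in Str vs. Ctrl 3 of the 10 calls were kept without Ctrl-2, 0 without Ctrl-3 and 2 without Str-3, and in Rec vs. Str 2 of the 12 were kept without Rec-2 and 2 without Str-3.

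None of the other PRDM family genes, which encode zinc finger proteins with a PR domain, passed edgeR's test in Str vs. Ctrl or Rec vs. Str. Beside Prdm1 the table holds 12 PRDM loci, and 6 passed the filter, with a median log2 fold change of -0.23 in Str vs. Ctrl. Of the 6, 2 had an unadjusted p below 0.05 in Str vs. Ctrl and 3 in Rec vs. Str, beside 23.1% and 26.3% of all genes tested. DESeq2 called 2 and 0, beside 2540 and 3193 of all 17244 genes. A further locus named prdm1, also annotated as PR domain zinc finger protein 1, was below the filter at 0.0901 to 0.864 FPKM. The nearest in direction to Prdm1 was Prdm15 (LOC113650232), a regulator of early embryonic signalling in the mouse. It stood at 2.83, 2.73 and 3.03 FPKM in Ctrl, 8.24, 5.82 and 6.28 in Str, and 4.93, 2.71 and 1.77 in Rec, so the Str libraries were the 3 highest. Its log2 fold change was 1.28 in Str vs. Ctrl (adjusted p = 0.0844) and -0.98 in Rec vs. Str (adjusted p = 0.139). Prdm11 lay the other way, with log2 fold changes of -1.09 (adjusted p = 0.0786) and 0.92 (adjusted p = 0.105). Those of prdm4, prdm10 and both prdm2 loci (LOC113641298 and LOC113655814) lay between -0.57 (prdm10) and 0.71 in both comparisons. Among PRDM loci that passed the filter, Prdm1 lay farthest from 0 in both comparisons, but it was chosen by such levels.

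Among the other interferon regulatory factors, 1 of the 11 loci that passed the filter fell in Str vs. Ctrl and none rose, with a median log2 fold change of -0.84. The one that fell was a second Irf4-like locus, LOC113650723. It stood at 10.2, 8.70 and 9.82 FPKM in Ctrl, 1.77, 3.25 and 3.65 in Str, and 7.29, 9.77 and 5.12 in Rec. All Str libraries were below the rest, as for Irf4, but Ctrl-1 was at the level of the other Ctrl libraries. Its log2 fold change was -1.70 in Str vs. Ctrl (SE 0.40, adjusted p = 0.0411) and 1.51 in Rec vs. Str (SE 0.40, adjusted p = 0.0468). The call in Str vs. Ctrl was lost on leaving out any 1 of the 6 libraries (adjusted p from 0.0796 to 0.113). Another Irf4-like locus, LOC113634347, was at 0.296 to 1.82 FPKM in all libraries, with a log2 fold change of -1.11 in Str vs. Ctrl (adjusted p = 0.193), and the last, LOC113662362, was below the filter.

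After recovery, in Rec vs. Str, 2 of the 11 IRF loci rose, Irf9 and the Irf4-like locus LOC113650723. Irf9 (LOC113662183), which carries type I interferon signals to DNA, rose with a log2 fold change of 1.40 (SE 0.35, adjusted p = 0.0383), from 17.8 to 24.0 FPKM in Str to 34.2 to 62.1 in Rec. In Ctrl it stood at 54.0, 38.0 and 44.2 FPKM, so Rec overlapped Ctrl. Its log2 fold change of -1.14 in Str vs. Ctrl did not pass (adjusted p = 0.0844). The Irf9 and Irf4-like calls were both lost without Rec-1, Rec-2, Str-1, Str-2 or Str-3, so each was kept in 1 of 6 such fits. Irf8, which in mammals shares DNA sites and partners with Irf4 in B cells and dendritic cells, stood at 3.08, 10.5 and 12.6 FPKM in Ctrl, 3.65, 3.06 and 2.53 in Str, and 3.32, 3.87 and 6.26 in Rec. Ctrl-1 was at the Str level for Irf8, and the log2 fold change of -1.38 in Str vs. Ctrl did not pass (adjusted p = 0.10). The values of irf1, irf2, irf3-like, irf5 and irf7 did not pass in either comparison.

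**Figure D2:**
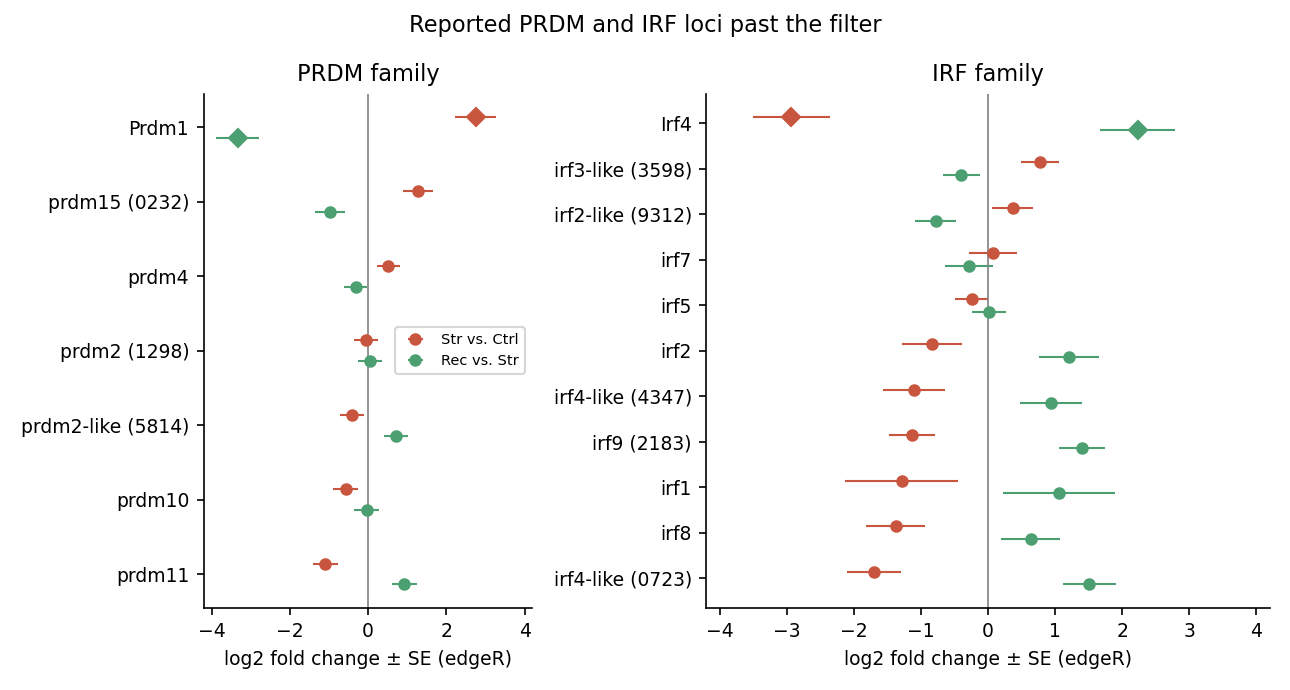
Log2 fold change with its standard error (edgeR) for the PRDM loci (left) and IRF loci (right) that passed the filter and are reported, in Str vs. Ctrl (red) and Rec vs. Str (green); numbers in brackets are the last digits of the locus name. Prdm1 at 2.75 and Irf4 at -2.94 in Str vs. Ctrl, drawn as diamonds, lie farthest from 0 in their families, but both were chosen by such levels.

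Of 20 loci for partners that Irf4 binds DNA with, 3 fell in Str vs. Ctrl and 0 rose (median -0.63). Ikzf1 (Ikaros), a lymphocyte zinc finger factor, stood at 5.26, 11.8 and 18.3 FPKM in Ctrl, 2.14, 1.81 and 2.28 in Str, and 5.25, 2.91 and 10.7 in Rec. Its log2 fold change was -2.39 in Str vs. Ctrl (SE 0.47, adjusted p = 0.0224), and all Str libraries were below the rest. The T cell activation factor nfatc2 fell by 1.84 (SE 0.32, adjusted p = 0.0168) and a second Nfatc2-like locus, LOC113642927, by 1.82 (SE 0.35, adjusted p = 0.0222), both on the log2 scale. Mef2c, a calcium-regulated factor in B cells, was at -1.57 (adjusted p = 0.0517). In Rec vs. Str 0 rose and 1 fell: an AP-1 (Jun-like) locus, LOC113662252, by 2.62 on the log2 scale (SE 0.51, adjusted p = 0.0191). It stood at 20.0, 10.5 and 12.2 FPKM in Ctrl, 18.8, 32.4 and 26.4 in Str, and 6.53, 2.91 and 2.20 in Rec. Ctrl and Str thus overlapped, and every Rec library was below every Ctrl library. Without Ctrl-2, Ctrl-3 or Str-3, none of the 3 loci that fell in Str vs. Ctrl kept its call, and the AP-1 locus lost its call without Rec-2 (adjusted p = 0.0695) or Str-3.

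The signals that induce Irf4 and Prdm1 in mammals (CD40, interleukin-21 and related cytokines, Toll-like receptors, NF-kB) gave 42 loci past the filter. Of these 1 rose and 2 fell in Str vs. Ctrl (7.14% called beside 5.88% of all genes, median -0.47). CD40 ligand (LOC113635687), through which helper T cells activate B cells, stood at 1.11, 2.76 and 5.61 FPKM in Ctrl, 0.203, 0.256 and 0.558 in Str, and 1.97, 1.35 and 3.46 in Rec. It fell by 3.08 on the log2 scale in Str vs. Ctrl (SE 0.68, adjusted p = 0.0327) and rose by 2.79 in Rec vs. Str (SE 0.67, adjusted p = 0.0359). The interleukin-21 receptor (LOC113661750) fell by 2.33 in Str vs. Ctrl (SE 0.50, adjusted p = 0.0307). Both the ligand and the receptor were thus lowest in the same 3 libraries as Irf4.

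The common cytokine receptor gamma chain serves the interleukin-2, interleukin-4 and interleukin-21 receptors in mammals. A locus for it, LOC113654430, was highest in the Str libraries, as Prdm1 was. It stood at 5.44, 8.44 and 5.96 FPKM in Ctrl, 35.0, 23.9 and 23.7 in Str, and 6.98, 8.07 and 6.45 in Rec. Within Str the order differed, since Str-1 was highest for this locus and lowest for Prdm1, and its Rec and Ctrl libraries overlapped. The gamma chain locus rose by 2.11 in Str vs. Ctrl (SE 0.29, adjusted p = 0.00878) and fell by 1.80 in Rec vs. Str (SE 0.28, adjusted p = 0.0107) on the log2 scale. Interleukin-6 (il6), a cytokine that promotes plasma cells in mammals, stood at 14.1, 10.2 and 15.7 FPKM in Ctrl, 36.8, 28.3 and 39.2 in Str, and 12.9, 11.3 and 5.07 in Rec. Its log2 fold change was 1.41 in Str vs. Ctrl (adjusted p = 0.0761), and it fell by 1.68 in Rec vs. Str (SE 0.41, adjusted p = 0.0375). Of the 42 loci, 2 rose and 3 fell in Rec vs. Str (11.9% called beside 9.15% of all genes, median 0.03). The gamma chain locus kept its call in Str vs. Ctrl without every library but Ctrl-3 (adjusted p = 0.0509), whereas CD40 ligand kept it in 1 of 6 such fits and the interleukin-21 receptor in 1 of 6. In Rec vs. Str the gamma chain call was kept in 6 of 6 such fits, that of il6 in 2 and that of CD40 ligand in 0.

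Genes that Blimp-1 represses in mammals gave 31 loci past the filter: 0 rose and 3 fell in Str vs. Ctrl, with a median of -0.62, and 10 of the 31 log2 fold changes were above 0. DESeq2 called 2 that rose and 8 that fell, beside 1128 and 1412 of all 17244 genes. The share called by edgeR was 9.68% in each comparison, beside 5.88% and 9.15% of all genes. Id3, an inhibitor of E-protein factors in lymphocytes, stood at 17.5, 17.3 and 37.5 FPKM in Ctrl, 2.90, 3.75 and 5.51 in Str, and 20.7, 11.1 and 21.2 in Rec. It fell by 2.5 in Str vs. Ctrl (SE 0.39, adjusted p = 0.0127) and rose by 2.21 in Rec vs. Str (SE 0.38, adjusted p = 0.0135) on the log2 scale, with no overlap of Str with the other groups. The lymphocyte exit receptor S1pr1-like (LOC113634496) fell by 3.46 (SE 0.57, adjusted p = 0.0144) and then rose by 2.62 (SE 0.55, adjusted p = 0.0240). Ccr7, a receptor that guides lymphocytes to lymphoid tissue, fell by 2.76 in Str vs. Ctrl (SE 0.54, adjusted p = 0.0226) and stood at a log2 fold change of 1.92 in Rec vs. Str (adjusted p = 0.0526). Without Ctrl-3 none of the 3 was called in Str vs. Ctrl, the adjusted p of id3 being 0.0520.

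The locus named s1pr1 lay the other way from the S1pr1-like locus, at 1.71, 3.89 and 3.27 FPKM in Ctrl, 7.07, 6.49 and 7.45 in Str, and 2.06, 1.03 and 4.64 in Rec (log2 fold change 1.33 in Str vs. Ctrl, adjusted p = 0.115). It was named after its values were seen. Ciita, the master regulator of MHC class II, was at 1.97, 5.53 and 5.57 FPKM in Ctrl and 1.82, 1.41 and 1.66 in Str (log2 fold change -1.31, adjusted p = 0.0596). Pax5, the B cell identity factor, was at 0.271, 2.54 and 1.73 FPKM in Ctrl and 0.434, 0.391 and 1.16 in Str, and did not pass (adjusted p = 0.391). A CD22-like locus, LOC113650183, fell in Rec vs. Str by 1.91 (SE 0.46, adjusted p = 0.0360), a call that was lost without Rec-2, Rec-3 or any 1 of the Str libraries. CD22-like loci are a large family of near copies in this table, and reads may be shared between them. Of the 31 loci, 2 rose and 1 fell in Rec vs. Str (median 0.15, and -0.22 without Rec-3).

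None of the 9 loci for corepressors that Blimp-1 recruits passed in either comparison by edgeR or DESeq2. An unadjusted p below 0.05 was found for 1 in Str vs. Ctrl, beside 23.1% of all genes tested. The arginine methyltransferase prmt5 had the smallest p in Str vs. Ctrl, at 5.63, 9.54 and 12.2 FPKM in Ctrl and 16.9, 13.4 and 20.2 in Str (log2 fold change 0.96, adjusted p = 0.160). The Groucho-type corepressor loci tle3, LOC113636832, LOC113645111 and LOC113657714 and the methyltransferase Ehmt2 (LOC113656482) did not pass.

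By edgeR 0 of 10 plasma cell loci passed in either comparison. An unadjusted p below 0.05 was found for 2 in Str vs. Ctrl and 6 in Rec vs. Str, beside 23.1% and 26.3% of all genes tested. DESeq2 called 2 and 3, beside 2540 and 3193 of all 17244 genes. The medians were -0.47 in Str vs. Ctrl and 0.74 in Rec vs. Str (0.54 without Rec-3). Xbp1, which expands the secretory apparatus of plasma cells and also acts in gut secretory cells, stood at 54.8, 76.1 and 105.4 FPKM in Ctrl, 59.1, 48.7 and 53.7 in Str, and 89.9, 70.2 and 121 in Rec. Its log2 fold change was -0.47 in Str vs. Ctrl (adjusted p = 0.310) and 0.89 in Rec vs. Str (adjusted p = 0.0603). Pou2af1, a B cell coactivator, was at 12.9, 9.78 and 7.28 FPKM in Ctrl, 0.803, 3.54 and 2.01 in Str, and 4.54, 1.40 and 1.58 in Rec (log2 fold change -2.22 in Str vs. Ctrl, adjusted p = 0.0748). Tnfrsf17, the plasma cell receptor BCMA, was at 17.8, 14.4 and 12.8 FPKM in Ctrl and 8.70, 17 and 4.42 in Str, and those groups overlapped. The summed level of the plasma cell loci was 225 to 363 FPKM in Ctrl, 165 to 195 in Str and 232 to 755 in Rec, so it was lowest in the libraries with the highest Prdm1. Single loci did not all follow the sum. Of the 10 loci, 9 had a log2 fold change below 0 in Str vs. Ctrl, and ell2 was the 1 above 0 (0.53, adjusted p = 0.353). Ell2 was at 14.5, 14.7 and 16.2 FPKM in Ctrl and 18.9, 22.5 and 22.1 in Str. Rec-3, with the summed level of 755 FPKM, stood apart at several loci of the list. The chaperone hsp90b1 was at 320 FPKM in Rec-3, against 8.58 to 85.5 in the other 8 libraries. Fkbp11 (36.6 against 7.54 to 14.8) and LOC113645777 (87.2 against 3.12 to 14.0) were also highest in that fish.

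Beside these, the markers of the cell types in which Irf4 and Prdm1 are known were measured. In Str vs. Ctrl the T cell list had the highest share called of the 16 lists. Of 17 T cell loci past the filter, 10 fell and 0 rose (58.8% beside 5.88% of all genes). Their median log2 fold change was -1.85, and all 17 log2 fold changes were below 0. The later step, Rec vs. Str, had 6 that rose and 0 that fell (35.3% beside 9.15% of all genes, median 1.6). Cd3e, a chain of the T cell receptor complex, stood at 11.3, 18.3 and 31.6 FPKM in Ctrl, 3.99, 4.36 and 3.76 in Str, and 10.05, 7.41 and 17.5 in Rec. It fell by 2.23 (SE 0.36, adjusted p = 0.0142) and then rose by 1.6 (SE 0.36, adjusted p = 0.0282). The Lck-like kinase locus LOC113636643 fell by 2.76 (SE 0.36, adjusted p = 0.00751), the CD5-like locus LOC113642376 by 3.75 (SE 0.53, adjusted p = 0.0101), and themis by 2.94 (SE 0.47, adjusted p = 0.0135). The summed level of the 19 T cell loci was 89.7 to 202 FPKM in Ctrl, 29.1 to 38.8 in Str and 52.8 to 115 in Rec, and a CD8 alpha-like locus was the only one listed at 0 in some library. The Lck-like and CD5-like calls in Str vs. Ctrl were kept without any 1 library, but of the 10 calls 2 were kept without Ctrl-3 and 2 without Str-3, and of the 6 in Rec vs. Str 0 were kept without Str-3.

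Of 16 effector T and natural killer cell loci, 3 fell in Str vs. Ctrl and 0 rose (median -1.65), and 2 rose in Rec vs. Str (median 1.23). Fas ligand-like LOC113646620, by which killer cells trigger cell death, stood at 9.68, 5.15 and 13.2 FPKM in Ctrl, 1.05, 0.626 and 0.556 in Str, and 2.40, 3.97 and 7.19 in Rec. It fell by 3.60 in Str vs. Ctrl (SE 0.53, adjusted p = 0.0118). The locus named faslg did not share its shape: on log2(FPKM + 1) Pearson's r with Irf4 was 0.08 for faslg and 0.82 for LOC113646620. A perforin-1-like locus, LOC113663352, fell by 1.96 (SE 0.45, adjusted p = 0.0358), and a granzyme B locus (LOC113657884;LOC113657869) by 2.44 (SE 0.56, adjusted p = 0.0375). Their summed level was 52.7 to 143 FPKM in Ctrl, 36.3 to 53.6 in Str and 38.0 to 95.7 in Rec. Of the 3 calls, 1 was kept without Ctrl-2, Ctrl-3, Str-1 or Str-2 and 0 without Str-3.

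Immunoglobulin chains, the product of B and plasma cells, split the Ctrl and Rec libraries into lower and higher ones as Irf4 did. Their summed level over 24 loci was 45.6, 200 and 172 FPKM in Ctrl, 50.7, 34.1 and 26.9 in Str, and 44.9, 46.2 and 104 in Rec. Ctrl-2, Ctrl-3 and Rec-3 were thus high, as for Irf4. Ctrl-1, Rec-1 and Rec-2 were within the Str range, whereas for Irf4 they were above it. Of the 20 loci past the filter all had a log2 fold change below 0 in Str vs. Ctrl (median -1.91), but 2 fell by the test (7 by DESeq2). In Rec vs. Str 0 passed by edgeR or DESeq2 and 1 had an unadjusted p below 0.05, beside 26.3% of all genes tested (median 0.90). The delta heavy chain locus LOC113637527 fell by 2.34 (SE 0.50, adjusted p = 0.0291) a call that was lost without any 1 of the 6 libraries but Ctrl-1 (up to adjusted p = 0.0934). The light chains are near copies, so their loci are not separate evidence.

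Of 37 B cell loci, 2 fell in Str vs. Ctrl and 0 rose (median -0.66), while Rec vs. Str had 1 up and 1 down (median 0.14). Those that fell were pik3ap1, an adaptor of B cell receptor signalling, by 1.9 (SE 0.38, adjusted p = 0.0229), and a Swap70-like locus, LOC113636465, by 2.09 (SE 0.41, adjusted p = 0.0226). Without Ctrl-2, Ctrl-3, Str-2 or Str-3 neither was called. The locus named swap70 did not share this shape: on log2(FPKM + 1) its Pearson's r with Irf4 was -0.16, against 0.96 for LOC113636465. Cd79a, a chain of the B cell receptor, was at 2.76, 11.3 and 12.9 FPKM in Ctrl, 3.88, 3.27 and 2.29 in Str, and 3.28, 1.45 and 5.37 in Rec, and did not pass (log2 fold change -1.38, adjusted p = 0.171). The share of the B cell loci called by edgeR was 5.41% in each comparison, not above the 5.88% and 9.15% of all genes. Summed over 60 loci the B cell list was at 174 to 303 FPKM in Ctrl, 122 to 173 in Str and 138 to 173 in Rec, and 18 of these loci were listed at 0 in some library.

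Irf4 is also made by myeloid cells. Of 20 macrophage and dendritic cell loci, 1 fell in Str vs. Ctrl (median -1.0), the phagocyte pore protein Mpeg1-like LOC113656273;LOC113656292, by 2.81 (SE 0.52, adjusted p = 0.0193). In Rec vs. Str it rose by 2.07 (SE 0.51, adjusted p = 0.0378), as did the macrophage growth factor receptor Csf1r-like LOC113650173, by 1.34 (SE 0.34, adjusted p = 0.0406). The locus named csf1r was less like Irf4: on log2(FPKM + 1) Pearson's r was 0.55, against 0.98 for LOC113650173. The scavenger receptor marco lay the other way, at 3.91, 7.97 and 21.4 FPKM in Ctrl, 20.0, 22.1 and 31.3 in Str, and 5.89, 3.08 and 10.7 in Rec, with a log2 fold change of -1.84 in Rec vs. Str (adjusted p = 0.0707). DESeq2 called 6 macrophage loci that fell in Str vs. Ctrl, and 2 that rose and 1 that fell in Rec vs. Str. The summed level of the macrophage list was 1219 to 3180 FPKM in Ctrl, 785 to 1016 in Str and 950 to 1850 in Rec. Most of this sum came from 1 locus, LOC113654954, at 980, 1841 and 2490 FPKM in Ctrl, 741, 635 and 550 in Str, and 740, 777 and 1488 in Rec. Its log2 fold change of -1.37 in Str vs. Ctrl did not pass (adjusted p = 0.0661). Of 9 granulocyte loci 1 fell, myeloperoxidase (LOC113661326), by 3.05 in Str vs. Ctrl (SE 0.60, adjusted p = 0.0225), and it rose by 2.51 in Rec vs. Str (SE 0.58, adjusted p = 0.0321). The granulocyte sum was 116 to 205 FPKM in Ctrl, 84.0 to 144 in Str and 89.7 to 193 in Rec. Each of the edgeR calls for Mpeg1-like, Csf1r-like and myeloperoxidase was lost without Str-3.

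Enterocyte genes were abundant in every library, as the tissue label has it: their sum was 5569 to 11232 FPKM in Ctrl, 2674 to 3628 in Str and 11223 to 24238 in Rec, highest in Rec-3. Of 21 enterocyte loci 1 rose and 1 fell in Str vs. Ctrl (9.52% called beside 5.88% of all genes, median -1.21). From Str to Rec 6 rose and 3 fell (42.9% called beside 9.15% of all genes, median 0.90), a share above the 35.3% of the T cell list. Fabp2, the intestinal fatty acid carrier, stood at 662, 250 and 633 FPKM in Ctrl, 199, 95.5 and 109 in Str, and 1250, 1133 and 2491 in Rec, and it rose by 3.68 in Rec vs. Str (SE 0.55, adjusted p = 0.00910). Other loci of the list lay the other way. LOC113637659 was the one that rose in Str vs. Ctrl, by 2.40 (SE 0.40, adjusted p = 0.0144), and it fell by 2.28 in Rec vs. Str (SE 0.39, adjusted p = 0.0135). LOC113645006 fell by 2.59 in Rec vs. Str (SE 0.35, adjusted p = 0.00821). The one that fell in Str vs. Ctrl was LOC113654968, by 1.33 (SE 0.33, adjusted p = 0.0462). Of the 9 calls in Rec vs. Str 2 were kept without Rec-2 and 2 without Str-3. Of 10 liver loci 0 passed in Str vs. Ctrl (2 at an unadjusted p below 0.05, and 2 by DESeq2) and 2 rose in Rec vs. Str, both lost without Rec-2. Of 6 red blood cell loci 0 passed in either comparison (1 at an unadjusted p below 0.05 in each, and 0 and 1 by DESeq2). For all genes tested, the shares at an unadjusted p below 0.05 were 23.1% in Str vs. Ctrl and 26.3% in Rec vs. Str. DESeq2 called 2540 and 3193 of all 17244 genes. Summed levels were 450 to 788 FPKM in Ctrl and Str for liver genes and 938 to 1529 in Rec, and 52.5 to 1378 FPKM over all 9 libraries for red cell genes, highest in Ctrl-3 and Rec-3. Which of these cell types carried the Prdm1 and Irf4 transcripts was not tested.

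**Figure D3:**
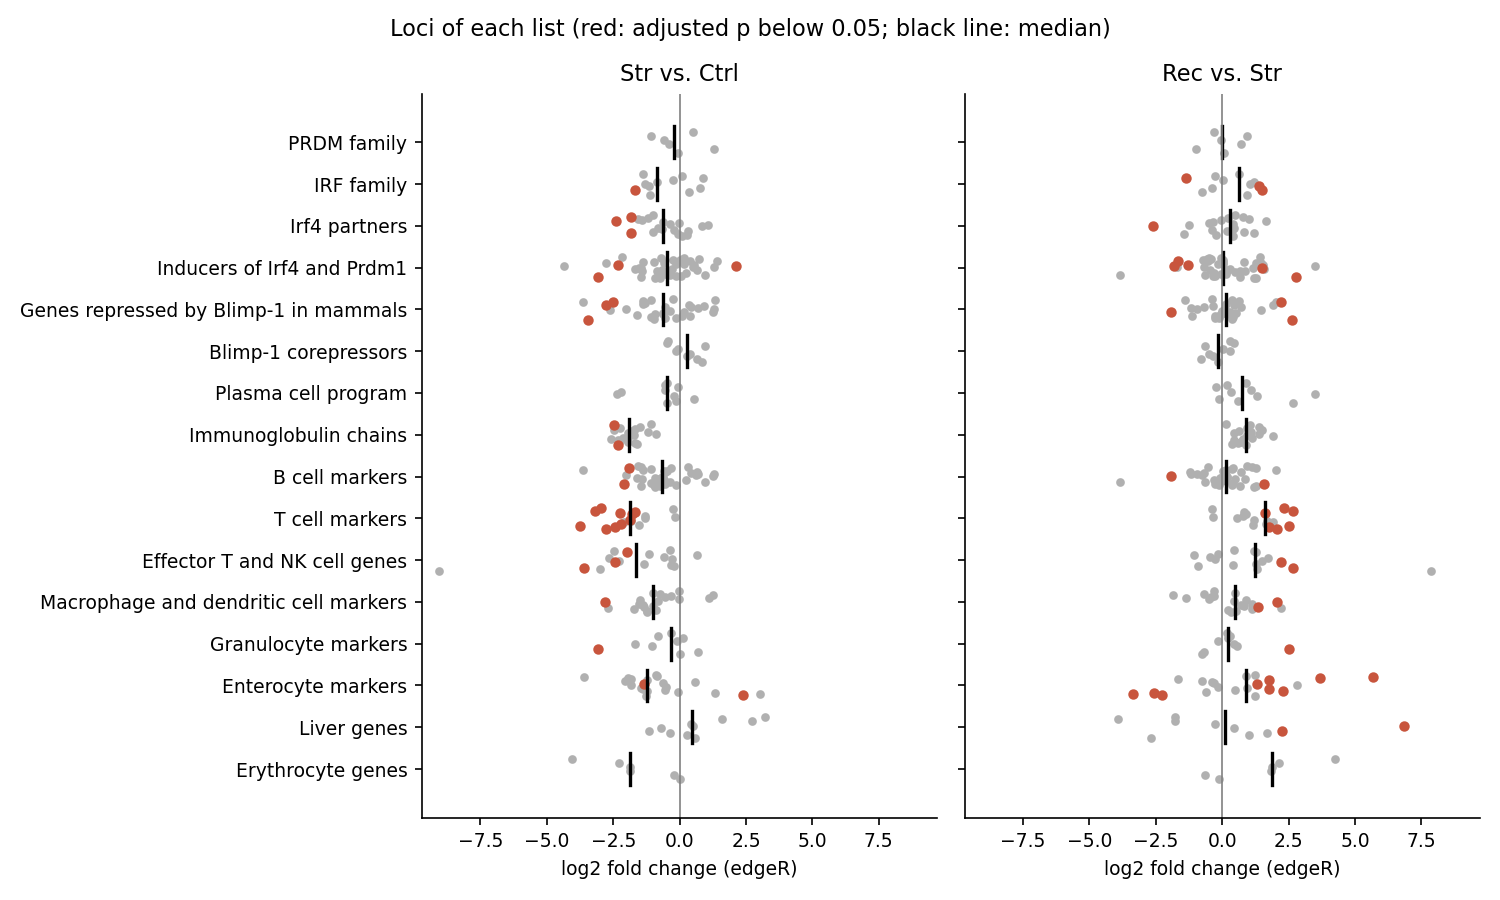
Log2 fold change (edgeR) of each tested locus in the 16 lists, Str vs. Ctrl on the left and Rec vs. Str on the right; red points passed the test and black lines are list medians. In Str vs. Ctrl the medians of the immunoglobulin chains (-1.91), erythrocyte genes (-1.86) and T cell markers (-1.85) lie lowest, and 10 of the 17 T cell loci are red.

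**Figure D4:**
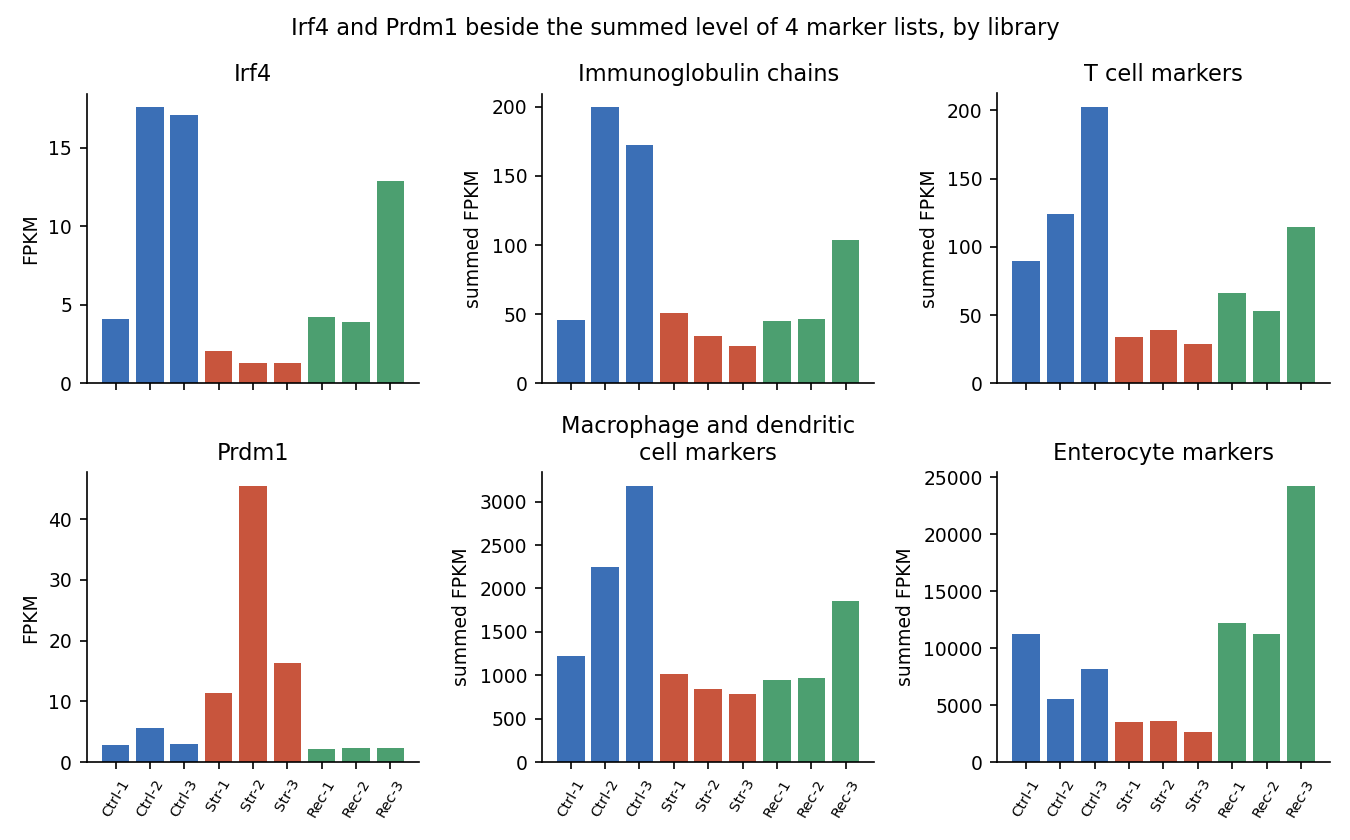
FPKM of Irf4 and Prdm1 and summed FPKM of 4 marker lists in each library, with bars from 0, coloured by group (Ctrl blue, Str red, Rec green). Most of the macrophage sum came from LOC113654954. Irf4 and the immunoglobulin chains share low Ctrl-1, Rec-1 and Rec-2 and high Ctrl-2, Ctrl-3 and Rec-3, while Prdm1 peaks at 45.5 FPKM in Str-2, where none of these 4 lists does.

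Likeness to each gene was measured as Pearson's r of log2(FPKM + 1) over the 9 libraries, as a description. By that measure Irf4 ran with the T cell list (median r 0.90, from 0.12 to 0.96 over 17 loci), the immunoglobulin chains (0.85 over 20 loci) and the macrophage list (0.84 over 20 loci), beside a median of 0.15 over all genes tested. Over the 6 Ctrl and Rec libraries alone these medians were 0.79, 0.86 and 0.90, beside 0.40 for all genes. Prdm1 ran against the T cell list (median r -0.63), the enterocyte list (-0.56), the macrophage list (-0.45), the plasma cell list (-0.42), the effector T cell list (-0.39) and, among others, the immunoglobulin chains (-0.33), beside 0.05 over all genes. Over the 6 Ctrl and Rec libraries the medians of the T cell list and the immunoglobulin chains were 0.42 and 0.70, beside 0.23. The sign for Prdm1 with these 2 lists thus came from the Str libraries, whereas the likeness of Irf4 to lymphocyte and macrophage genes was present without them.

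Because the pair moved in opposite directions (r = -0.63), no gene could run closely with both. That r sets a ceiling on the smaller of the 2 correlations, so the values below are a ranking under that ceiling and not a finding about these genes. The highest by the smaller of the 2 correlations was kdm5a, a histone demethylase, at r = 0.42 with Prdm1 and 0.41 with Irf4, and the others of the top 10 (ccdc85b, LOC113648796, abcb6, LOC113643033, phf14, LOC113648244, LOC113634550, LOC113658254 and LOC113636660) lay between 0.37 and 0.42 with each. The 5 lowest with both (LOC113648452, LOC113661835, LOC113646969, rnf215 and LOC113642995) lay between -0.33 and -0.45. The genes most like each member on its own were therefore listed too, a choice made after these values were seen.

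The 10 named genes most like Prdm1 had r from 0.97 to 0.99. They were a DENN domain protein 2C (LOC113645795), arrdc3, a Cnksr2-like scaffold (LOC113649451), a prostaglandin synthase 2-like gene (LOC113642216), a thioredoxin-interacting protein-like gene (LOC113662807), a nicotinamide riboside kinase 2-like gene (LOC113645141), tymp, a globoside transferase (LOC113662884), tcim and a Ran-binding protein 3-like gene (LOC113638458). None of them was on the lymphocyte lists. Tymp, LOC113662884 and LOC113649451 reached 1 FPKM only in the Str libraries, and LOC113642216 outside Str only in Ctrl-2 and Ctrl-3. These loci passed the filter only with the help of the Str libraries, so their likeness to Prdm1 was partly set by the filter. Prostaglandin synthase 2, the inducible cyclooxygenase, stood at 0.889, 1.63 and 1.5 FPKM in Ctrl, 4.46, 12.3 and 6.48 in Str, and 0.645, 0.634 and 0.419 in Rec. Nicotinamide riboside kinase 2, an enzyme of NAD synthesis, stood at 21, 22.8 and 11.3 FPKM in Ctrl, 79.4, 314 and 123 in Str, and 5.79, 6.91 and 10.4 in Rec. Both shared with Prdm1 the peak in Str-2 and a Rec level below Ctrl. Their log2 fold changes in Str vs. Ctrl were 2.62 for LOC113642216 and 3.26 for LOC113645141, given with no p since both were picked for this shape. The most opposite named genes were col21a1, trim45, mocs1, leiomodin-1-like LOC113655829 and glt8d1, with r from -0.99 to -0.97.

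The 10 named genes most like Irf4 had r from 0.98 to 0.99. They were a signal-regulatory protein beta-1-like receptor (LOC113642156), the B cell adaptor pik3ap1, eprs, neurocalcin-delta (LOC113644450), sept6, the leukocyte migration factor dock2, apof, LOC113658136, Mpeg1-like LOC113656273;LOC113656292 and Csf1r-like LOC113650173. The receptor LOC113642156 stood at 3.82, 10.2 and 10.6 FPKM in Ctrl, 2.73, 1.80 and 1.59 in Str, and 3.81, 2.90 and 8.53 in Rec. Pik3ap1 stood at 2.88, 7.27 and 8.43 FPKM in Ctrl, 1.58, 1.66 and 1.36 in Str, and 2.74, 2.56 and 5.24 in Rec. Both repeat the order of Irf4, with Str lowest, Ctrl-1, Rec-1 and Rec-2 in the middle, and Ctrl-2, Ctrl-3 and Rec-3 high. The most opposite named genes were ppil4, LOC113648698, mast2, cfap157 and grb10, with r from -0.94 to -0.92.

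EdgeR called no gene on the lists between Rec and Ctrl. In that comparison it called 0 of the 17244 genes (0%), 1002 (5.81%) had an unadjusted p below 0.05, DESeq2 called 115, limma on log2(FPKM + 1) called 0, and limma on log2(FPKM + 0.1) called 1. Of the 128 loci around the pair 14 had an unadjusted p below 0.05 and DESeq2 called 1, which fell. Of the cell type lists, DESeq2 called 1 B cell locus that fell, and 1 enterocyte and 1 liver locus that rose. The medians of the T cell list (-0.63), the immunoglobulin chains (-1.12) and the genes repressed by Blimp-1 (-0.63) lay below 0 in Rec vs. Ctrl, as did those of the Irf4 partners (-0.54), the B cell list (-0.48), the macrophage list (-0.58) and the granulocyte list (-0.49). Irf4 (-0.70) and Prdm1 (-0.58) were both on that side, while the medians of the plasma cell list (0.43) and the liver list (1.04) lay above 0. Several lists share loci, so their medians are not separate evidence. Tcf7 is on both the T cell list and the list of genes repressed by Blimp-1. Cd79a, cxcr5 and pax5 are on both the latter and the B cell list, and spi1 on both the Irf4 partner and macrophage lists. All comparisons here share libraries, so values in Str vs. Ctrl and Rec vs. Str move together through the Str group.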

How the data were processed

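RNA from the posterior intestine of 9 fish was sequenced on an Illumina NovaSeq. According to the methods, the authors trimmed reads with Cutadapt, aligned them with HISAT, and assembled and quantified transcripts with StringTie. The deposited table holds estimated counts per gene, which are whole numbers, and FPKM values that the authors computed per sample. Strandedness and genome build: not given in the sources used here. Small counts fall mostly on multiples of 4, so a read pair usually gave 4 counts, and they are not independent molecules.

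Genes that reached 1 FPKM in 3 or more libraries were tested with edgeR 4.0.16 (R 4.3.3) on the counts, with TMM scaling, a group factor, all 9 libraries, a two-sided quasi-likelihood F-test and Benjamini-Hochberg adjustment. Standard errors were derived from the fold change and its F statistic. The alternatives were DESeq2 1.42.0, limma 3.58.1 on log2 FPKM (pseudocount 1 or 0.1), other filters, counts divided by 4, only the groups compared, the replicate number as a block, and each library left out. The code was tested on simulated data. All 16 gene lists were matched by symbol and product name, and some loci are on more than 1 list. The genes named were up to 4 per list and comparison with the smallest p and, for likeness, the 10 highest and 5 lowest. Pax5, cd79a, tnfrsf17, s1pr1, swap70, faslg, csf1r, LOC113634347 and LOC113662239 fall outside that rule and were named after their values were seen. The members and lists were chosen with earlier results of these data known. The values of 1 named locus are not reported here.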

Additional observations from a re-analysis of the deposited data

How the results depend on the processing

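The direction of the Prdm1 and Irf4 differences was kept in all 3 comparisons under every alternative run. With single libraries left out, the log2 fold change of Prdm1 ran from 1.89 to 3.09 in Str vs. Ctrl, from -3.65 to -2.47 in Rec vs. Str and from -0.75 to -0.26 in Rec vs. Ctrl, and that of Irf4 from -3.26 to -2.67, from 1.58 to 2.49 and from -1.35 to -0.42. Counts of called genes moved much more. In Str vs. Ctrl the 1014 genes called by edgeR became 2540 with DESeq2 and 623 with a replicate block. In Rec vs. Str the 1577 became 3193 with DESeq2, 677 with only the 2 groups compared and 893 with the replicate block. In Rec vs. Ctrl the 0 became 115 with DESeq2 and 1 with limma on log2(FPKM + 0.1). Without single libraries the counts ran from 115 to 612, from 247 to 1525 and from 0 to 2. Of the 128 pathway loci, the 10 called in Str vs. Ctrl became 31 with DESeq2 and 20 with only the 2 groups compared. The 12 in Rec vs. Str became 23 with DESeq2, 4 with only the 2 groups and 6 with the replicate block, and the 0 in Rec vs. Ctrl became 1 with DESeq2. Without single libraries they ran from 0 to 13, from 2 to 12 and stayed at 0. The causes of these shifts were not tested. The split of 868 higher and 709 lower genes in Rec vs. Str became 654 and 900 with limma on log2(FPKM + 1) and 699 and 829 on log2(FPKM + 0.1), which put the median of all genes at -0.09 and -0.12. The Rec vs. Str medians of the PRDM family and of the genes repressed by Blimp-1 changed sign in both limma fits. The labels do not say whether the replicate numbers pair the fish. Of 9 same-numbered pairs, 1 had a correlation of deviations over 0.1 (from -0.26 to 0.19). Differently numbered pairs were not compared, so this cannot decide it. Of 127 values of named loci, 0 reversed, and of the 52 that were called 47 lost the call under some alternative. The 10 genes most like each member shared 7 with the list from log CPM for Prdm1 and 7 for Irf4, and 1 and 0 with that from Spearman's rank correlation.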
